A study of Mus musculus with 4 samples.

Results

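The chief cell zymogen genes are 8 genes, *Pgc*, *Gif*, *Chia1*, *Pga5*, *Lipf*, *Bhlha15*, *Rab3d* and *Rab26*, of the 46095 gene symbols counted in stomach RNA from WT and *c-Myc* transgenic mice. They were chosen by name, as secreted products of the chief cell, its transcription factor and the RAB proteins of its granules, and all 8 have a row in the count table. WT were *Myc* fl/fl littermates, without Cre, and the transgenic mice (MYC-KI in the sample names, *Atp4b-cre;MycOE* in the genotype label) carry *Atp4b-cre* and 1 copy of the Cre-dependent *Myc* transgene. All 4 samples are C57BL/6 stomach at 12 weeks of age, 2 of each genotype. Cre is driven by the *Atp4b* promoter of the parietal cell lineage, so the transgene was not directed at chief cells.

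Chief cells lie at the base of the corpus gland and release digestive zymogens from large granules. Their secretory architecture depends on MIST1, the basic helix-loop-helix factor encoded by *Bhlha15*, which binds E-box sequences and is known to induce *Rab3d* and *Rab26*. In the mouse, intrinsic factor comes from chief cells, whereas in human stomach it comes from parietal cells. Loss of mature chief cells and the appearance of mucous metaplasia are known to accompany loss of parietal cells in the mouse corpus.

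Of the secreted products, pepsinogen C, chitinase and intrinsic factor transcripts were 63.9-fold, 448-fold and 21.7-fold lower in *c-Myc* transgenic stomach than in WT, and *Bhlha15* was 4.70-fold lower. *Rab3d* and *Pga5* had log2 fold changes of -0.16 and 0.02 and did not pass the test, *Rab26* was nearly undetected and missed the threshold, and *Lipf* had no read in any sample. Calls were made with edgeR's quasi-likelihood test, and required both an adjusted p under 0.05 and a change of more than 1.5-fold in either direction. By this rule 4 of 7 tested members were lower and 0 were higher, where 10.7% of 17643 tested genes were called, 5.08% lower and 5.65% higher. Higher genes were 52.6% of the calls, and 75.5% on library size without TMM. DESeq2, run as an alternative, called 17.7% of 18257 genes in either direction, and 5 of the members. Leaving out either WT sample left 0 of the members and 0 of all genes called in edgeR, with 3554 genes at an unadjusted p under 0.05 without WT replicate 1 and 3410 without WT replicate 2. In stomach RNA, fewer chief cells and less RNA per chief cell cannot be told apart.

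These values rest on a correction of the deposited table. The gene names of the deposited table run in an order that ignores case, and both MYC-KI columns follow another order of the same names. Across genes, Pearson's r of mean log2(count + 1) between the genotypes was 0.524 as deposited and 0.985 after the MYC-KI counts, in row order, were given to the names sorted by character code, with capitals before lower case. For the 3109 names (6.74%) with the same place in both orders, r was 0.982. Sequenced depth was 30260305 to 41463647 counts, and the 2 replicates of each genotype differed by more than counting noise (chi-square per degree of freedom 28.9 for WT and 97.9 for MYC-KI). *Xist* had 17846 counts in WT replicate 2 and 85 to 201 in the other samples, and *Ddx3y* had 5 against 1861 to 2623, which sets WT replicate 2 apart from the other 3 samples in the sex these genes mark. The transgene encodes human MYC, and the mouse *Myc* row, with WT counts of 1062 and 759 against 735 and 1091 in MYC-KI, gives no check of it.

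The correction changes the MYC-KI counts of every chief cell gene. Over the 30 rows on either side of each of them, other members left out, r between the genotypes lay between -0.13 and 0.18 as deposited. After re-sorting it was 0.856 around *Chia1* and 0.969 to 0.986 around the other 7. The 60 rows around *Chia1* include 7 of its own gene family, and without these r was 0.970. In the deposited rows the MYC-KI counts were 579 and 790 at *Pgc*, which fall to *Plxna3* on re-sorting, and 3243 and 3269 at *Pga5*, which fall to *Plscr1*. They were 0 and 1 at *Bhlha15*, 68 and 48 at *Rab3d* and 519 and 915 at *Rab26*, where re-sorting gives 400 and 232, 10671 and 13680, and 5 and 2. At *Lipf* 12 and 35 deposited counts became 0 and 0. As deposited, all 8 members were called, as were 84.1% of 22083 tested genes. *Pgc*, *Gif*, *Chia1* and *Bhlha15* were lower in both tables, with log2 fold changes of -12.08, -5.42, -7.64 and -11.20 as deposited.

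**Figure D1:**
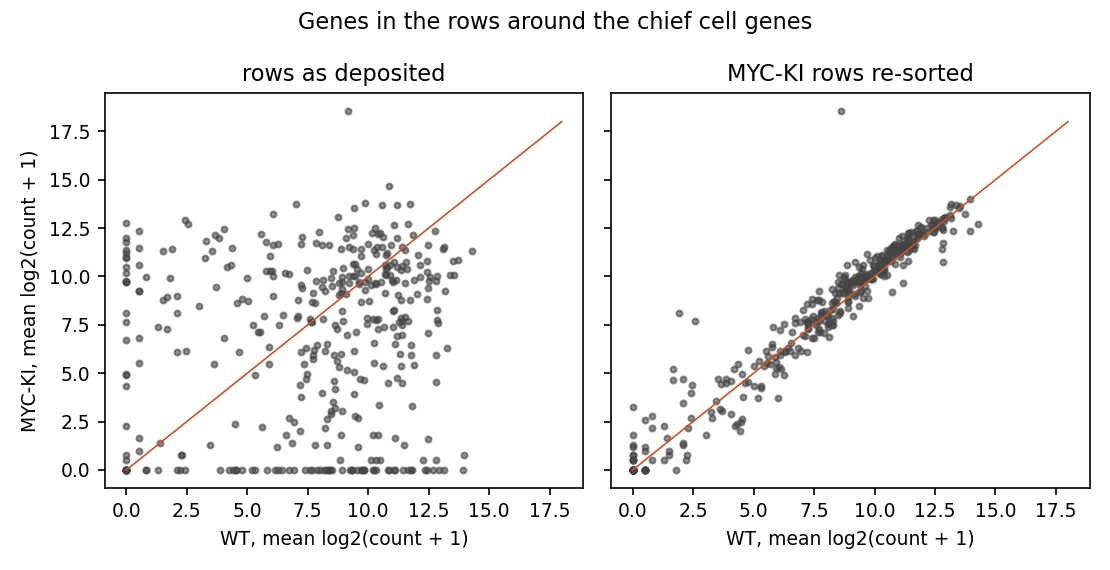
Mean log2(count + 1) in WT (x axis) and MYC-KI (y axis) for the 392 genes in the rows around the chief cell genes, with the table as deposited on the left and re-sorted on the right. Each point is 1 gene and the line marks equal values. The points scatter without relation on the left and follow the line on the right, where the highest point is the chitinase-like gene *Chil4*.

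Promoter sequences are shown for the 4 members that fell and for *Rab3d*, because MIST1 binds E-boxes and these genes differ in how far they moved. RefSeq (GRCm38.p6) gave a promoter for 6 of the 8 members, from 250 bases before to 50 after the start, with *Gif* under *Cblif*. Capitals mark the general E-box, CANNTG, and the sequence of the TATA element, TATAAA, both searched on either strand. The E-box forms CAGCTG and, separately, CATATG were searched as well and are counted within the general E-box. The windows are chr17:47726592-47726891 for *Pgc*, chr3:106113132-106113431 for *Chia1*, chr19:11747309-11747608 for *Gif* and chr5:144190036-144190335 for *Bhlha15*, all on the plus strand, and chr9:21918134-21918433 for *Rab3d* on the minus strand. Each is printed 5′ to 3′ in the direction of transcription.
Pgc: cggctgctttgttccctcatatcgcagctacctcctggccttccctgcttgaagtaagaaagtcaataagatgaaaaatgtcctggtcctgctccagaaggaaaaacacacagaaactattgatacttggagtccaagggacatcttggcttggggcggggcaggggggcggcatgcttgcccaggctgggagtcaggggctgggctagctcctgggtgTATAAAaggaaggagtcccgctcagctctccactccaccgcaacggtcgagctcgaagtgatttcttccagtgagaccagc
Chia1: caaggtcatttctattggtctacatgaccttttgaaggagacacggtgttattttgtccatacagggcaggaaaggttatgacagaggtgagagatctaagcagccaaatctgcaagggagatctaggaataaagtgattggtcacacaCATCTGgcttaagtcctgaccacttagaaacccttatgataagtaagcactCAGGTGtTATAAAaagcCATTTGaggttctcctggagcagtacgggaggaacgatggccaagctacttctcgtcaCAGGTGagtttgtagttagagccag
Gif: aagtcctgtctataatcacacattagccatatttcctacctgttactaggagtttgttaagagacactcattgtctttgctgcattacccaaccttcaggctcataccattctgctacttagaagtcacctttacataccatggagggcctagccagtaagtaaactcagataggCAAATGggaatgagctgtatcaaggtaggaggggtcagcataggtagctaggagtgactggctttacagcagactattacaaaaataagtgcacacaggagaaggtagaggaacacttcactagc
Bhlha15: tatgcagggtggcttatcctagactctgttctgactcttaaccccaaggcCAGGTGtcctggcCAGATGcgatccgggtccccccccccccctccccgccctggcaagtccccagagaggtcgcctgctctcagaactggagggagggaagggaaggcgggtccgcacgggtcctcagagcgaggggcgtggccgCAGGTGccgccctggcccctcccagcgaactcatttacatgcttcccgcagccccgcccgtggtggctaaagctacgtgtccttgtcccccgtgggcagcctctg
Rab3d: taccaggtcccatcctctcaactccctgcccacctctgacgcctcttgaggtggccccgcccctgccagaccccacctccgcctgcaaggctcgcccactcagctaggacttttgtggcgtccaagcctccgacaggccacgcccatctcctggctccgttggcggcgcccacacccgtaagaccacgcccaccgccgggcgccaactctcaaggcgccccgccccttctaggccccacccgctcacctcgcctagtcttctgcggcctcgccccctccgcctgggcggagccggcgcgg

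CANNTG occurs 4 times at *Chia1* and at *Lipf* (not printed), 3 times at *Bhlha15*, 1 time at *Gif* and 0 times at *Pgc* and *Rab3d*. Of 32851 promoters of this length, 72.3% hold it. *Pgc* has TATAAA 31 bases before its start and *Chia1* 43 bases before, and 13.6% of promoters hold this element. The form CAGCTG, held by 16.3% of promoters, and CATATG, held by 3.91%, occur in none of the 6 member promoters. These matches are a description of the letters in the windows.

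*Pgc* encodes pepsinogen C (progastricsin), the precursor of an acid protease. It lies on chr17:47726842-47734482 (GRCm38, plus strand, GENCODE M21). WT stomachs held 2718249 and 2139907 *Pgc* counts, and MYC-KI stomachs held 35380 and 63711. In both WT samples *Pgc* had the most counts of any gene, 7.52% and 7.07% of all counts, and in MYC-KI it had 0.113% and 0.154% and ranked 52 and 33. Exact 95% binomial intervals of these shares, which cover counting error only, span 7.51% to 7.53% in WT replicate 1 and 0.112% to 0.114% in MYC-KI replicate 1. In TMM-scaled CPM (counts relative to library size), *Pgc* fell from 78851 ± 3036 (SD, n = 2) to 1235 ± 271 (SD, n = 2). This is a log2 fold change of -6.00 ± 0.29 (SE), with an adjusted p of 0.00975 in edgeR. The groups did not overlap, and 24 of the tested genes fell further.

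*Chia1*, on chr3:106113229-106132120 (plus strand), encodes acidic chitinase, which works at the low pH of the stomach. WT stomachs gave 67261 and 57533 counts, against 155 and 201 in MYC-KI. These amount to 2004 and 2062 CPM against 4.57 and 4.50 CPM, so the replicates lay close together and the genotypes far apart. Its log2 fold change was -8.81 ± 0.13 (SE; edgeR, adjusted p = 0.00141), and 3 tested genes fell further.

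*Gif* (also *Cblif*), on chr19:11747554-11763447 (plus strand), encodes gastric intrinsic factor, which carries cobalamin to the ileum. Counts were 59588 and 46825 in WT and 3413 and 2611 in MYC-KI. *Gif* went from 1727 ± 68.7 CPM (SD, n = 2) to 79.5 ± 29.8 CPM (SD, n = 2). The MYC-KI samples, at 101 and 58.5 CPM, both lay below the WT samples, at 1776 and 1678 CPM. The log2 fold change was -4.44 ± 0.32 (SE; edgeR, adjusted p = 0.0152).

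*Pga5* and *Lipf* are the other members chosen as secreted products, from the pepsin and acid lipase families. *Pga5*, on chr19:10668956-10678071 (minus strand), gave 1150 and 752 counts in the WT samples and 1297 and 1059 in MYC-KI. Its groups overlapped, at 34.3 and 27.0 CPM against 38.2 and 23.7 CPM. The log2 fold change of 0.02 ± 0.28 (SE; edgeR, adjusted p = 0.975) changed sign under 3 of 10 alternative settings of the re-sorted table. *Lipf*, on chr19:33961187-33976810 (plus strand), had 0 counts in each of the 4 samples, which allows up to 0.0724 to 0.0991 CPM (unscaled) by the 3-count limit, and it was not tested.

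*Bhlha15*, on chr5:144190286-144194441 (plus strand), gave 1379 and 1078 counts in the WT samples and 400 and 232 in MYC-KI. In CPM it fell from 39.9 ± 1.73 (SD, n = 2) to 8.49 ± 4.67 (SD, n = 2). MYC-KI replicate 1, at 11.8 CPM, was above MYC-KI replicate 2, at 5.19 CPM, and both lay under the WT values of 41.1 and 38.6. The log2 fold change was -2.23 ± 0.42 (SE; edgeR, adjusted p = 0.0442), the closest to the threshold of the 4 called members, and 400 tested genes fell further. It was -2.94 without MYC-KI replicate 1 and -1.76 without MYC-KI replicate 2. With the replicate number as a block *Bhlha15* was not called (edgeR, adjusted p = 0.0683).

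*Rab3d* and *Rab26* encode small GTPases of secretory granules. *Rab3d*, on chr9:21907491-21918192 (minus strand), gave 11518 and 9786 counts in the WT samples and 10671 and 13680 in MYC-KI. At 347 ± 5.35 CPM (SD, n = 2) in WT and 310 ± 5.92 CPM (SD, n = 2) in MYC-KI, the WT samples lay above the MYC-KI samples by a small margin. *Rab3d* had a log2 fold change of -0.16 ± 0.08 (SE; edgeR, adjusted p = 0.236), and on library size without TMM it turned to 0.06. *Rab26*, on chr17:24527241-24534210 (minus strand), gave 29 and 17 counts in the WT samples and 5 and 2 in MYC-KI. Its summed counts of 46 and 7 give a ratio of 7.20 per library (95% counting interval 3.23 to 18.9). The edgeR log2 fold change was -2.95 ± 0.73 (SE) with an adjusted p of 0.0699, and DESeq2 gave an adjusted p of 0.0462. *Rab26* overlaps *Traf7*, *Rab26os*, *Snord60* and AC132367.1, and the strand setting of the counting is not given in the sources used here, so its few reads are uncertain.

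**Figure D2:**
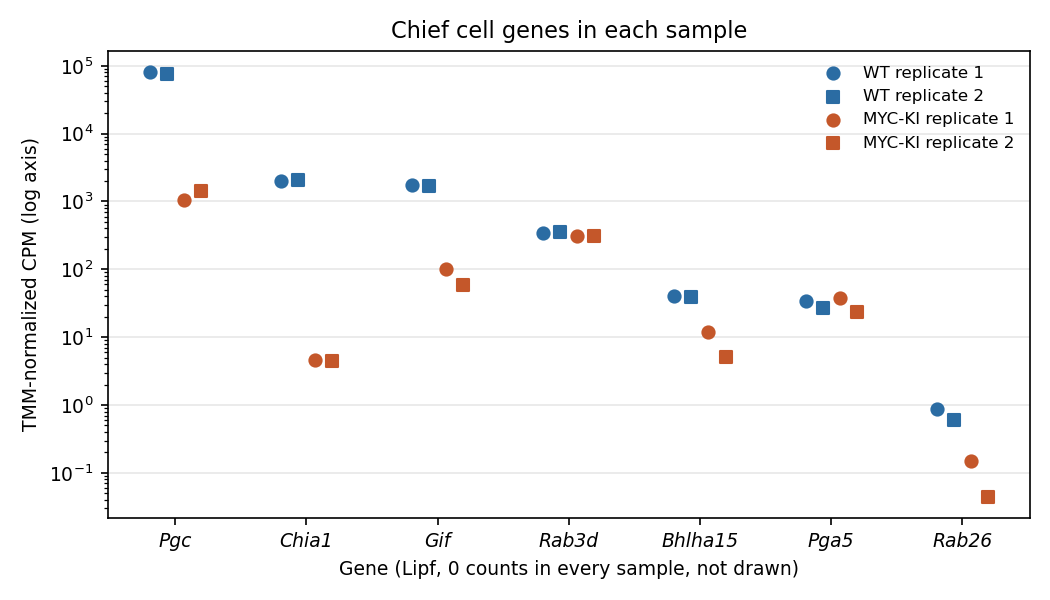
TMM-normalized CPM on a log axis (y axis) of the chief cell genes (x axis) in each sample, blue for WT and orange for MYC-KI, circles for replicate 1 and squares for replicate 2. *Pgc*, *Chia1*, *Gif* and *Bhlha15* are separated by genotype by more than the replicates differ, and the symbols of *Pga5* interleave.

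The groups did not overlap, with WT above, in 6 of the 7 tested members, a pattern that 31.5% of tested genes showed, and 64.9% of tested genes did not overlap in either direction. The members' median log2 fold change was -2.95, against 0.01 over all tested genes. With 7 tested members this median is the value of *Rab26* itself, and it was -3.94 without MYC-KI replicate 1 and -2.29 without MYC-KI replicate 2. Scaling by library size alone moved the median of all genes to 0.23, and the log2 fold changes of the 4 called members lay between -8.58 and -2.01 there. The 8 genes took 7.91% and 7.45% of all counts in WT and 0.164% and 0.197% in MYC-KI. *Pgc* made up 95.1% and 94.9% of the members' counts in WT and 68.9% and 78.2% in MYC-KI.

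**Figure D3:**
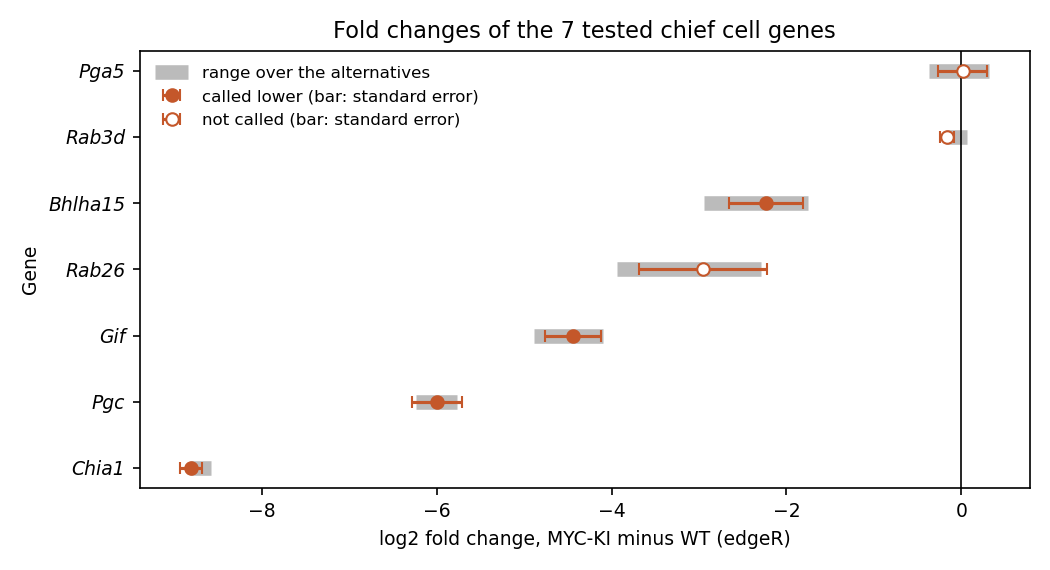
Log2 fold change of MYC-KI against WT (x axis; edgeR) for the 7 tested chief cell genes (y axis), with standard errors as bars and the range over the 9 or 10 alternatives of the re-sorted table as grey bands. Filled points were called, and the bands of *Chia1*, *Pgc*, *Gif* and *Bhlha15* stay below 0 while those of *Pga5* and *Rab3d* cross it.

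Within a sample, ratios between members do not depend on the scaling. *Chia1* over *Pgc* was -5.34 and -5.22 on the log2 scale in WT and -7.83 and -8.31 in MYC-KI, so that *Chia1* was lower relative to *Pgc* in both MYC-KI samples. *Gif* over *Pgc* was -5.51 and -5.51 in WT and higher in MYC-KI, at -3.37 and -4.61. The mean log2 ratio of *Bhlha15* to *Pgc* was 3.67 higher in MYC-KI and that of *Rab3d* to *Bhlha15* 2.19 higher, and neither ratio overlapped between the genotypes. Each of these ratios had p = 0.333 in a two-sided exact permutation test, the smallest p that this test can give with 2 against 2 samples. Per kilobase of exon, the WT levels were 56809 CPM for *Pgc*, 1124 for *Gif*, 1068 for *Chia1*, 82.7 for *Rab3d*, 19.0 for *Pga5*, 11.4 for *Bhlha15* and 0.258 for *Rab26*. In MYC-KI *Pgc* stayed highest at 890, *Rab3d* followed at 74.0 and *Gif* at 51.7, then *Pga5* at 19.2, and *Bhlha15* (2.43) and *Chia1* (2.38) lay within the spread of *Bhlha15*.

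Of 9 tested aspartic proteases of the pepsin family *Pgc* alone was called, and the list's median log2 fold change was -0.36. *Cym*, the prochymosin gene, had WT counts of 1323 and 483 against 410 and 191 in MYC-KI (log2 fold change -1.80; edgeR, adjusted p = 0.144). *Ctse*, the gene of cathepsin E, had 70065 and 73323 counts against 49600 and 77309 (-0.56; adjusted p = 0.100). Of the 9 acid lipase genes, *Lipf*, *Lipo1* and *Lipo4* were at or near 0 in all samples, and 0 of the 6 tested were called, with *Lipa*, the lysosomal acid lipase, the highest per kilobase at 2229 and 1530 counts in WT and 1594 and 1613 in MYC-KI.

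In the gene family of *Chia1*, calls went in both directions. Of 9 tested glycosyl hydrolase 18 genes, *Chia1* was called lower and the chitinase-like genes *Chil3* and *Chil1*, which bind but do not cut chitin, were called higher. The other 6 were not called. With the replicate number as a block *Chil3* and *Chil1* were not called, and they gave no value at 10 counts in every sample. *Chil3* had WT counts of 1 and 6 against 288 and 263 in MYC-KI (log2 fold change 5.90; edgeR, adjusted p = 0.0279), and *Chil1* had 6 and 4 against 190 and 227 (5.01; adjusted p = 0.0152). *Chil4* had WT counts of 86 and 1761 against 398873 and 359268 in MYC-KI, and it missed the threshold with an adjusted p of 0.0569 (edgeR; log2 fold change 8.24 ± 1.82 SE). The WT samples of *Chil4* lay far apart, and both MYC-KI samples were above them. *Chil3* lies 15.4 kb and *Chil4* 69.4 kb from *Chia1* on chromosome 3. *Chil3* and *Chil4* are close paralogs, and how reads were split between them is uncertain. DESeq2, which called 17.7% of all genes it tested, called 4 of the family higher, *Chil4* among them.

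For *Gif*, the list of cobalamin binding and uptake genes had 2 of 9 tested members called lower, *Gif* and *Lrp2*, and 0 higher. *Lrp2*, the megalin receptor, had WT counts of 392 and 726 against 13 and 10 in MYC-KI (log2 fold change -5.96; edgeR, adjusted p = 0.0198). *Tcn2*, the plasma carrier transcobalamin 2, had 4875 and 3802 counts against 4383 and 4009 (-0.36; adjusted p = 0.267). The list's median was -0.36.

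Among 10 secretory RAB GTPases, *Rab3c* alone was called, with WT counts of 636 and 491 against 217 and 285 in MYC-KI (log2 fold change -1.52; edgeR, adjusted p = 0.0198). *Rab27a*, which acts in granule docking, had an adjusted p of 0.0282 but a log2 fold change of -0.58, just short of the fold threshold. DESeq2 (17.7% of all genes called) called 4 of the 10 lower, *Rab26* and *Rab27a* among them. The list's median log2 fold change was -0.54, and it was -0.51 without MYC-KI replicate 1 and -0.59 without MYC-KI replicate 2. *Rab3d* had the highest WT level per kilobase of the 10. Of 30 genes of the granule exocytosis machinery 6 were called lower and 0 higher, with a list median of -0.49. Among these were *Rph3al*, which encodes a RAB effector (1802 and 1471 counts in WT, 526 and 435 in MYC-KI; log2 fold change -2.08), and *Rab3il1*, which encodes an exchange factor (-1.18). DESeq2 (17.7% of all genes called) had 10 genes of the list lower and 1 higher. In edgeR with no filter on low counts, 2618 of 26731 genes were called, and 9 of the list were lower and 1 higher. On library size without TMM (3011 of 17643 genes called) the list had 5 genes lower and 2 higher. With the replicate number as a block (114 of 17643 genes called) 0 of the 30 were called. The list's median was -0.40 without MYC-KI replicate 1 and -0.59 without MYC-KI replicate 2.

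Of 5 reported MIST1 targets, a list that holds *Rab3d* and *Rab26*, *Atp2c2* was called higher and none lower. *Atp2c2*, the gene of a secretory pathway calcium pump, had WT counts of 489 and 404 against 1786 and 2879 in MYC-KI (log2 fold change 2.01; edgeR, adjusted p = 0.0150). *Gjb1*, the connexin 32 gene, had 7971 and 6942 counts against 7037 and 10771 and its groups overlapped. DESeq2 (17.7% of all genes called) had 2 genes of the list lower, *Rab26* and *Copz2*.

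In the wider secretory machinery of the endoplasmic reticulum (ER), 6 of 45 genes were called lower and 2 higher, and the list's median was 0.02, close to that of all genes. *Pdia2*, a disulfide isomerase gene, had WT counts of 18474 and 15655 against 1295 and 1229 in MYC-KI (log2 fold change -4.08; edgeR, adjusted p = 0.00975). *Tmed6*, a cargo receptor gene, had 2913 and 2301 against 429 and 389 (-2.99; adjusted p = 0.0152), and *Derl3*, of ER-associated degradation, had 305 and 246 against 67 and 91 (-2.16; adjusted p = 0.0200). *Srp14*, a signal recognition particle gene (0.89), and *Pdia5*, another disulfide isomerase gene (0.88), were higher. *Xbp1*, the transcription factor of the list, had WT counts of 13439 and 12314 against 12327 and 13697 in MYC-KI and was not called. On library size without TMM, where 3011 of 17643 genes were called, 4 genes of the list were lower and 3 higher.

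**Figure D4:**
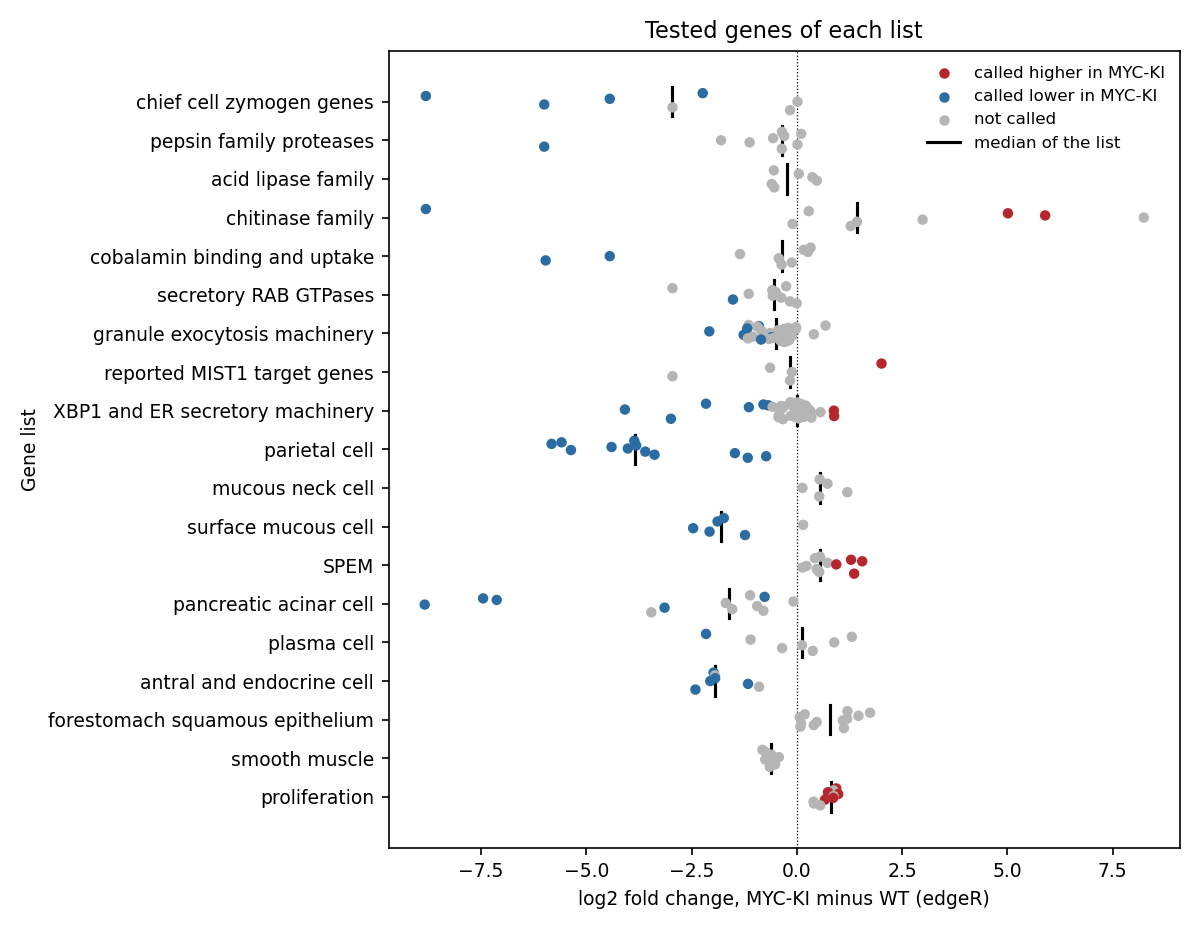
Log2 fold change of MYC-KI against WT (x axis; edgeR) of each tested gene in the chief cell list, its families and machinery, and the marker lists (y axis), coloured by call, with a black bar at each list's median. The chief cell bar lies at -2.95, the value of *Rab26*, and the parietal cell bar at -3.84, while the ER machinery bar lies near 0.

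Markers of some other cells fell as the chief cell genes did and those of others did not, and their part in the result was not tested. All 12 parietal cell markers were called lower (median log2 fold change -3.84), *Atp4b* (-5.82), *Atp4a* (-5.59) and *Kcne2* (-5.36) most, and the summed level was 12385 and 12612 CPM in WT against 540 and 579 CPM in MYC-KI. The log2 ratio of *Pgc* to *Atp4a* was 3.40 and 3.27 in WT and 2.91 and 2.93 in MYC-KI. Against *Atp4a*, the other called members differed more, with mean log2 ratios in MYC-KI minus WT of -3.21 for *Chia1*, 1.11 for *Gif* and 3.25 for *Bhlha15*, beside -0.41 for *Pgc*. Of 6 surface mucous markers 5 were lower (median -1.81), and of 7 antral and endocrine markers 5 were lower (median -1.94). Of 5 mucous neck markers none was called, with a summed level of 25745 CPM in MYC-KI replicate 1 and 10820 CPM in replicate 2, and of 12 markers of spasmolytic polypeptide-expressing metaplasia (SPEM) 4 were higher, *Dmbt1* (1.55), *Wfdc2* (1.36), *Clu* (1.29) and *Gpx2*. Of 10 proliferation genes 5 were higher in edgeR. All 10 were higher on library size without TMM, where 3011 of 17643 genes were called, 2272 of them higher. With the replicate number as a block, where 114 of 17643 genes were called, 0 were. Their median log2 fold change was 0.80, and 0.66 without MYC-KI replicate 1. For SPEM the median of 0.54 went to -0.003 without MYC-KI replicate 1 and to 1.03 without MYC-KI replicate 2. For mucous neck markers it went from 0.54 to -0.21 and to 1.04.

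Of 22 pancreatic acinar markers, 8 had no more than 3 counts in any sample, and of these *Prss1*, *Cpa1* and *Amy2a5* were at 0. Of 12 tested, 5 were called lower, including *Pla2g1b*, a secreted phospholipase gene, with WT counts of 329050 and 240125 against 642 and 954 in MYC-KI (log2 fold change -8.84), and *Clps*, the colipase gene (-7.13). The median log2 fold change was -1.61, and -1.85 over the 13 tested without MYC-KI replicate 1. DESeq2, with 17.7% of all genes called, had 10 of 15 tested lower, *Cpb1*, *Try5*, *Pnliprp1*, *Cel* and *Ptf1a* among them. Of the plasma cell list, *Derl3*, which the ER list also holds, was the 1 of 7 tested genes called, and *Ighm* and *Igkc* were at 0. The annotation used for counting is not given, so these 0 counts do not show that plasma cells were absent. Forestomach and smooth muscle lists had 0 of 12 and 0 of 8 called, and their summed levels spread between replicates, from 1083 to 4932 CPM and from 3002 to 6189 CPM in MYC-KI. The forestomach median log2 fold change was 0.78, and it was 1.23 without MYC-KI replicate 1 and -0.33 without MYC-KI replicate 2.

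**Figure D5:**
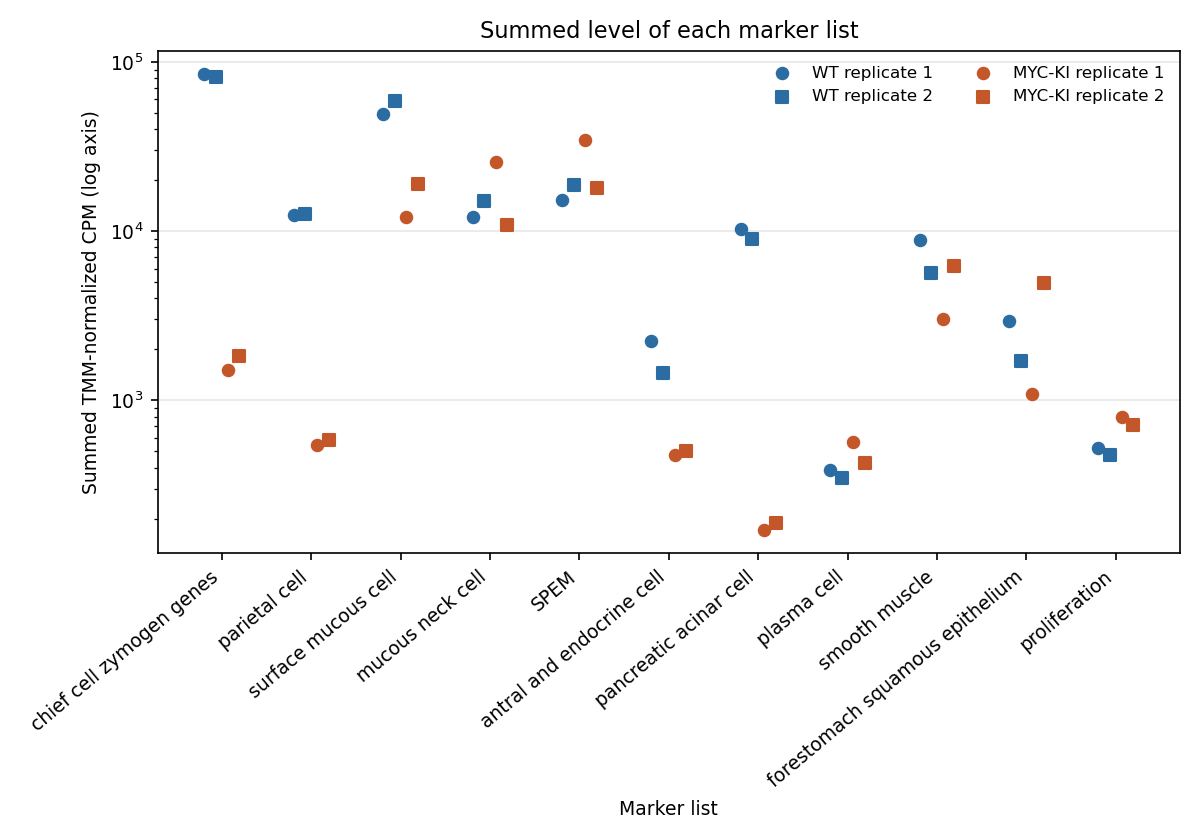
Summed TMM-normalized CPM on a log axis (y axis) of each marker list (x axis) in each sample, blue for WT and orange for MYC-KI, circles for replicate 1 and squares for replicate 2. The chief cell, parietal cell and pancreatic-type lists lie far lower in both MYC-KI samples, and the forestomach and smooth muscle lists differ between replicates of a genotype.

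Outside the 8 genes, the 5 abundant genes whose levels over the 4 samples were nearest to the members' median profile, by Euclidean distance of centred log2 CPM, were *B4galnt3* (0.456), *Slc7a8* (0.466), *Rph3al* (0.540), *Furin* (0.570) and *Slc16a7* (0.587). Their choice by profile fixes that they fell, with log2 fold changes between -2.97 and -2.08. *Furin*, the gene of a proprotein convertase, had WT counts of 48444 and 39708 against 8022 and 5753 in MYC-KI. Of the members, *Rab26* (0.142) and *Bhlha15* (0.276) lay nearest the median profile and *Chia1* (6.31) and *Pgc* (3.65) farthest. With 7 tested members the median takes the value of 1 member in each sample, so closeness of the middle members follows from how it was made.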

How the data were processed

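Raw read counts per gene symbol in 4 samples were deposited by the authors in 1 table without normalization, and per the labels HISAT2 and mm10 were used. The counting tool, annotation and strand setting are not given in the sources used here. The series text speaks of triplicates, and 2 samples per genotype were analysed here. Where nothing ties samples to separate mice, p-values measure only the spread between these samples. Columns were mapped to samples by name. MYC-KI counts were re-sorted, with the order taken from the names alone. The test was that of edgeR 4.0.16 under R 4.3.3, with TMM factors, filterByExpr by genotype, glmQLFit, glmQLFTest and Benjamini-Hochberg adjustment over 17643 genes. For the SE, the log2 fold change was divided by the root of F. The script was tested on simulated data. Thresholds follow the study's methods, which name DESeq2, here an alternative (1.42.0).

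The genes and lists were chosen with earlier results of these data known, and no set test was run. Named genes are the members, the called genes of each list with up to 3 largest rises and falls, the gene of each list highest per kilobase in WT, and the 5 genes nearest in profile above a mean log2 CPM of 5. *Myc*, *Xist*, *Ddx3y*, *Cym*, *Ctse*, *Chil4*, *Tcn2*, *Rab27a*, *Copz2*, *Gpx2*, *Xbp1*, *Cpb1*, *Try5*, *Pnliprp1*, *Cel* and *Ptf1a* were chosen after their values were seen. For 1 gene that this rule names, values are not reported here. Exon lengths are from GENCODE M21, and promoters from RefSeq, GRCm38.p6. The 95% intervals are exact (Clopper-Pearson) and cover counting error only.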

Additional observations from a re-analysis of the deposited data

How the results depend on the processing

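Of all genes, 1892 were called (52.6% higher). The count was 18580 in the table as deposited, where 8 members were called, 3234 with DESeq2, 3011 on library size without TMM (75.5% higher) and 1113 at an absolute log2 fold change above 1. Leaving out 1 sample gave 0 to 2470 genes and 0 to 4 members. Without WT replicate 1 or WT replicate 2 no member was called in edgeR, with adjusted p of 0.196 and 0.232 for *Pgc*, and without either MYC-KI sample all 4 were. The lone sample of an arm is there assumed to vary like the others. With the replicate number as a block 114 genes and 3 members were called, and *Bhlha15* had an adjusted p of 0.0683. The numbers share a correlation of deviations of 0.07 and were not taken as pairs. The log2 fold change of *Pga5* was -0.013 with the replicate block and -0.37 to 0.32 when 1 sample was left out. That of *Rab3d* was 0.062 on library size, and that of *Rab26* was 4.66 in the table as deposited. Over the alternatives of the re-sorted table *Pgc* ranged from -6.24 to -5.77, *Gif* from -4.88 to -4.10, *Chia1* from -8.83 to -8.58 and *Bhlha15* from -2.94 to -1.76. *Rab26* gave no value at 10 counts in every sample. The cause of these differences was not tested.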
